A study of Mus musculus with 6 samples.

Results

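The transcription factors Spi1, Cebpa, Cebpb, Irf8, Klf2, Klf4, Gfi1 and Zeb2 direct the formation and the identity of monocytes. They were picked by name, with earlier results of these data known, and are 8 of the 57010 genes counted and 8 of the 18114 genes that passed the filter on low counts. RNA was sequenced from bone marrow monocytes of C57BL/6 mice (C57BL/6J in the study's methods) that were 1 year old, in 3 femur-derived libraries (S13, S15 and S18) and 3 mandibular-derived libraries (S16, S19 and S23). Monocytes of both sites were enriched by negative selection, in which other marrow cells are bound and discarded. Neither sex nor animal nor batch is labelled per library, and the study's methods name both male and female mice. The labels do not say whether the libraries came from separate animals. The p-values thus measure the spread between these libraries, part of which may be technical.

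Monocytes arise in the marrow from progenitors that can also give neutrophils, dendritic cells and, further back, red cells and megakaryocytes. PU.1 (encoded by Spi1) opens the myeloid genes and C/EBPα brings progenitors to the granulocyte and monocyte stage. IRF8, KLF4 and ZEB2 favour the monocyte and dendritic branches, whereas GFI1 represses monocyte genes and favours neutrophils. Monocytes are also the precursors of osteoclasts, and PU.1 is needed for that fate as well.

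Total counts on genes were between 15718782 and 25371474 per library. Levels are given as TMM-scaled CPM, that is counts relative to the library's total, on the usual CPM scale, adjusted by edgeR's trimmed mean of M values scaling. A gene was called where the quasi-likelihood test of edgeR gave a Benjamini-Hochberg adjusted p under 0.05 together with a difference of 2-fold or more, which was so for 3.88% of tested genes in the higher and 1.3% in the lower direction in the mandible. The 12 monocyte markers, among them Ly6c2, Ccr2 and Csf1r, summed to between 8330 and 15395 CPM in femur libraries and between 7223 and 12842 CPM in mandible libraries, and none of them was called. RNA of other cells was not even between the sites: 12 mesenchymal and osteoblast markers summed to 330 to 424 CPM in the femur and 9347 to 15931 CPM in the mandible, where 11 of the 12 were called higher. The 7 dental epithelial markers summed to 0.221 to 3.82 CPM in the femur and 5817 to 11397 CPM in the mandible. Of these, Krt5, Krt14, Enam, Klk4 and Mmp20 were at 0 in at least 1 femur library. The megakaryocyte markers summed to 539 to 867 CPM in the femur and 72.8 to 105 CPM in the mandible, and 4 of 10 erythroid markers were called lower. A pair of libraries stood apart. Femur library S15 had a count for 40494 genes, 13454 of them in no other library, whereas the other 5 libraries had a count for 17481 to 23513 genes. Mandible library S23 held 25189 counts of Xist and 0 of the Y-linked genes Ddx3y and Uty, whereas the others held at most 12 counts of Xist and at least 503 of each Y-linked gene. By these genes S23 came from female and the other 5 libraries from male mice, so S23 shared no animal with them.

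None of the 8 lineage transcription factors differed between mandibular-derived and femur-derived monocytes by these thresholds, which called 5.18% of all tested genes in either direction (edgeR). The largest differences were in Zeb2, with a log2 fold change of 0.69 ± 0.38 (SE) in the mandible over the femur, and in Gfi1, with -0.93 ± 0.52. Between these lay Cebpb (0.36), Klf4 (0.31), Irf8 (0.10), Cebpa (0.05), Klf2 (-0.05) and Spi1 (-0.17), and the median of the 8 was 0.07 beside -0.04 for all tested genes. None of the 8 had an unadjusted p under 0.05 by edgeR, beside 16.4% of tested genes. By DESeq2 and limma-voom 0 of the 8 were called, beside 8.54% and 4.16% of tested genes, and 1, Zeb2, had an unadjusted p under 0.05 (0.036 and 0.031, adjusted p = 0.21 by both), beside 18.2% and 18.4% of tested genes. In all 8 the 3 femur and the 3 mandible libraries overlapped, whereas they did not overlap for 24.2% of tested genes. In RNA of whole samples, fewer cells of a type and less RNA per cell cannot be told apart.

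**Figure D1:**
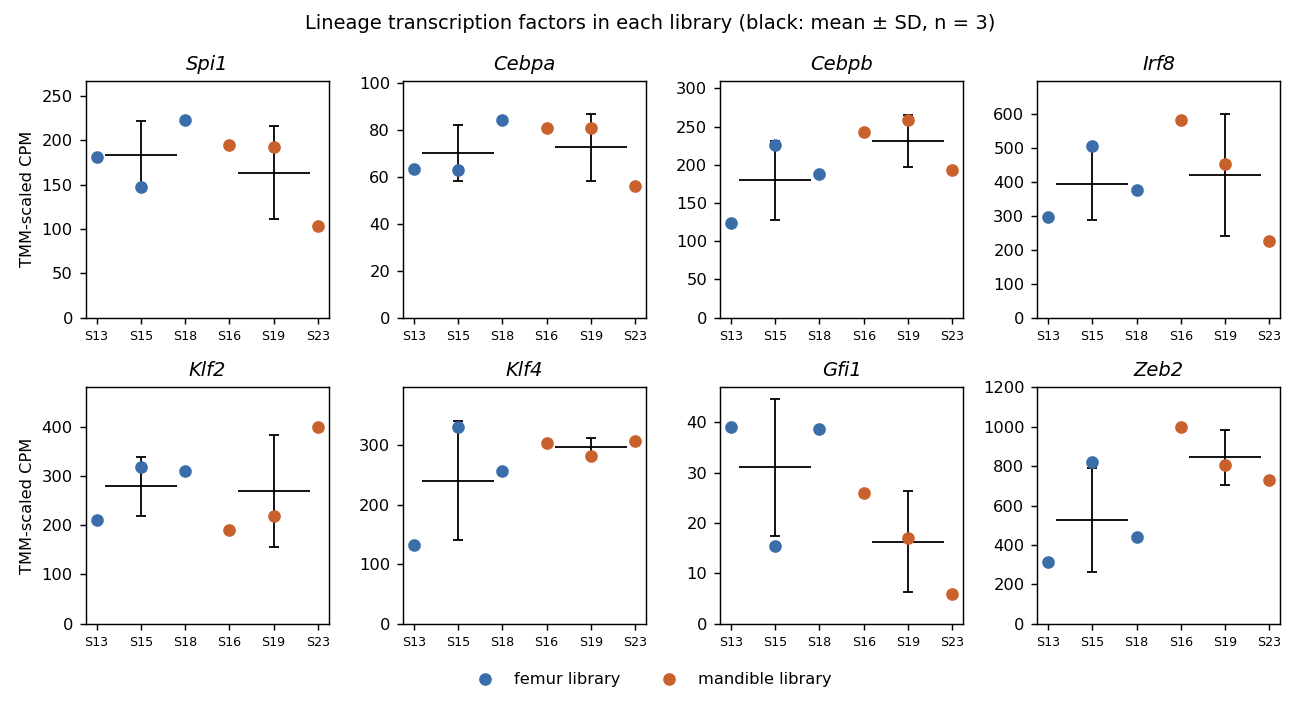
TMM-scaled CPM (vertical axes, from 0) of the 8 lineage transcription factors in the femur libraries S13, S15 and S18 (blue) and the mandible libraries S16, S19 and S23 (orange), with the mean ± SD of each site in black. The sites overlap in every panel. Zeb2 in S15 (823 CPM) lies within the mandible range of 732 to 1000 CPM, and Gfi1 is lowest in S23 (5.89 CPM).

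The 95% intervals show which sizes of change the libraries leave possible. For Spi1 the interval of the fold was 0.555 to 1.43, for Cebpa 0.695 to 1.54, for Irf8 0.605 to 1.88 and for Klf2 0.579 to 1.62. In this fit of all 6 libraries a 2-fold difference in either direction thus lay outside all 4. Intervals were computed for this fit only, and some other fits were less certain. Spi1 was at -0.35 ± 0.38 (log2, SE) without S19, and Irf8 at -0.23 ± 0.43 with the trend with gene length removed. A 2-fold higher level in the mandible lay just inside the intervals of Cebpb (0.824 to 2.01) and Klf4 (0.743 to 2.06) and further inside that of Zeb2 (0.903 to 2.86). For Gfi1 the interval, 0.237 to 1.16, held a 4-fold lower level. Counting error was small beside the spread between libraries. It was between 0.707% of the value (Zeb2 in S16) and 9.85% (Gfi1 in S23), whereas the coefficient of variation between the libraries of a site was between 4.68% (Klf4, mandible) and 61.7% (Gfi1, mandible).

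**Figure D2:**
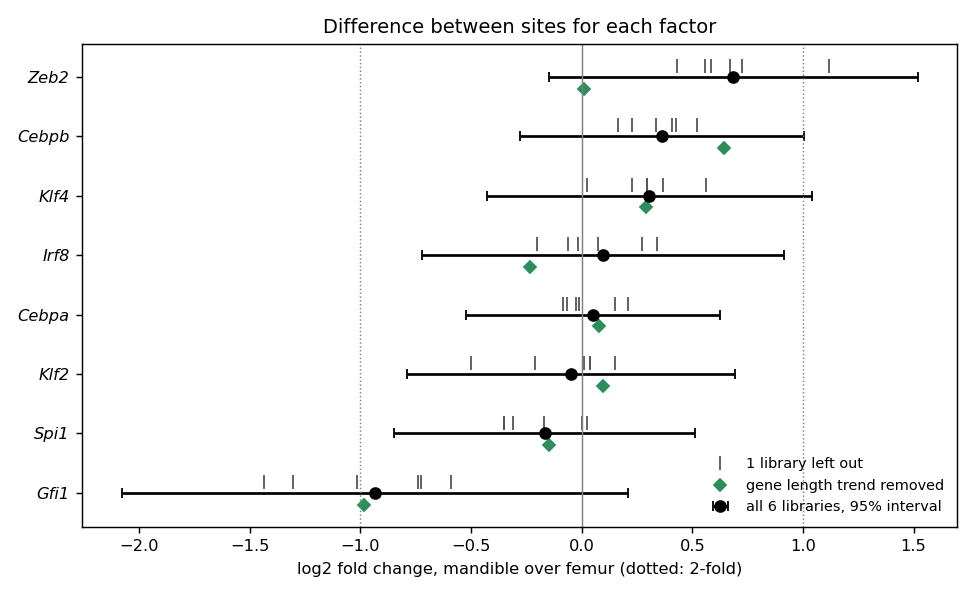
Log2 fold change of the mandible over the femur (horizontal axis) for each lineage transcription factor, with all 6 libraries and the 95% interval (black), with 1 library left out in turn (grey ticks) and after removal of the trend with gene length (green). All 8 black intervals hold 0. Zeb2 reaches 1.12 without S15 and is at 0.01 after the length trend is removed.

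Sequences upstream of the start sites were matched by symbol in RefSeq (build GRCm38.p6) for 7 of the 8 factors, all but Spi1, with 12 windows of 250 bases. Both strands of each window were searched for cores that these factors are known to bind and for a TATA box. Composite sites, such as those at which IRF8 joins PU.1, were not searched for. The PU.1 core GAGGAA was in all 4 windows of Zeb2 and in no window of the other 6 factors searched, and in 23.25% of all 32851 windows of the RefSeq table. The C/EBP pattern TTGCNNAA was in 1 window of Zeb2 and 1 of Gfi1 (9.564% of all windows), and the IRF repeat (GAAA, any 2 bases, GAAA) in none of the 12 (2.977%). The KLF box CACCC was in 6 windows of 5 factors (52.01%), the GFI1 core AAATCA in both windows of Irf8 (12.43%), the ZEB E-box CAGGTG in 1 window of Gfi1 and 1 of Irf8 (17.22%), and TATAAA in 1 window of Cebpa and 1 of Irf8 (12.37%). A pair of the Zeb2 windows, chr2:45113254-45113503 and chr2:45113280-45113529, overlap and hold the same copy of GAGGAA, so the 4 windows hold 3 distinct copies. No hit overlapped a hit of another motif. The share of G and C in the windows was between 49.6% (1 window of Zeb2) and 81.6% (Cebpb), beside a median of 52.4% over all windows. A match describes the letters and not a bound site.

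Spi1 (ENSMUSG00000002111, chromosome 2, 91082390 to 91115756, plus strand, GRCm38) encodes PU.1, an ETS factor without which monocytes and osteoclasts do not form. Its levels were 181, 147 and 222 CPM in S13, S15 and S18 and 195, 192 and 103 CPM in S16, S19 and S23. Mandible libraries S16 and S19 lay among the femur libraries, and S23 was the lowest of the 6. The femur mean was 183 ± 37.8 CPM (SD, n = 3) and the mandible mean 163 ± 52.3 CPM. The log2 fold change was -0.17 ± 0.31 (SE), with an adjusted p of 0.88 by edgeR's quasi-likelihood test and p = 0.7 by the exact two-sided permutation test, whose smallest p is 0.1 with 3 against 3 libraries.

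Cebpa (ENSMUSG00000034957, chromosome 7, 35119293 to 35121928, plus strand) encodes C/EBPα, which takes progenitors into the granulocyte and monocyte lineage. It was at 63.5, 63.2 and 84.2 CPM in S13, S15 and S18 and at 81.0, 81.2 and 56.2 CPM in S16, S19 and S23. As for Spi1, S18 was highest and S23 lowest, and this was the factor with the smallest spread over the 6 libraries, with the highest at 1.498 times the lowest. The site means, 70.3 ± 12.05 CPM and 72.8 ± 14.4 CPM, differed by a log2 fold change of 0.05 ± 0.26 (adjusted p = 0.96 by edgeR, exact permutation p = 1). The direction turned negative in 4 of the 6 fits that left out 1 library.

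Cebpb (ENSMUSG00000056501, chromosome 2, 167688915 to 167690418, plus strand, a gene of 1 exon) encodes C/EBPβ, which acts in mature monocytes and macrophages and in emergency production of myeloid cells. Values were 124, 226 and 188 CPM in the femur libraries S13, S15 and S18 and 243, 258 and 193 CPM in the mandible libraries S16, S19 and S23. S16 and S19 were above every femur library, and S23 was between S18 and S15. The log2 fold change was 0.36 ± 0.29 (adjusted p = 0.65 by edgeR, exact permutation p = 0.2), and it kept this direction under all 20 alternatives. Tmem189 runs against it on the other strand with 312 shared exonic bases, and since use of strand in the counting is not given in the sources used here, some reads cannot be told apart. All counts of Tmem189 came to at most 10.25% of those of Cebpb in any library, a share that does not measure the reads on the shared bases.

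Irf8 (ENSMUSG00000041515, chromosome 8, 120736358 to 120756694, plus strand) encodes the interferon regulatory factor that joins PU.1 at composite sites and is needed for monocytes and some dendritic cells. Its promoter window at chr8:120736108-120736357 (plus strand, 5′ to 3′) is shown since it holds the core that GFI1, the opposing factor, binds. Capitals mark that core, which reads here on the minus strand as the reverse complement of AAATCA and starts 175 bases before the start site.
Irf8 promoter: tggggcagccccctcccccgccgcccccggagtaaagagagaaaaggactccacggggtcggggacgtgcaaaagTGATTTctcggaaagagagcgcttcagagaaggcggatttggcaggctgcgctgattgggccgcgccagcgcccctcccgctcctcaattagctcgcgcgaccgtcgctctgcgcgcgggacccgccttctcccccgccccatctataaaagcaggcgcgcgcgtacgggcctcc
Irf8 was at 296, 507 and 376 CPM in S13, S15 and S18 and at 581, 453 and 225 CPM in S16, S19 and S23. The highest and the lowest value of all 6 libraries were both from the mandible. Accordingly the site means were 393 ± 106 CPM and 420 ± 180 CPM, with a log2 fold change of 0.10 ± 0.37 (adjusted p = 0.95 by edgeR, exact permutation p = 1). Irf8 and Gfi1 were both lowest in S23, at 225 and 5.89 CPM.

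Klf2 (ENSMUSG00000055148, chromosome 8, 72319033 to 72321656, plus strand) encodes a zinc finger factor that keeps monocytes quiescent and is also abundant in endothelial cells. Klf2 was at 210, 317 and 310 CPM in S13, S15 and S18 and at 190, 219 and 400 CPM in S16, S19 and S23. Unlike Spi1, Cebpa, Irf8 and Gfi1, Klf2 was highest in S23. The means of 279 ± 59.8 CPM and 270 ± 114 CPM gave a log2 fold change of -0.05 ± 0.34 (adjusted p = 0.97 by edgeR, exact permutation p = 0.9). Without S23 it was -0.50, and without S16 0.15. Endothelial markers, 8 in number, summed to 60.9 to 79.0 CPM in the femur and 39.5 to 64.4 CPM in the mandible.

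Klf4 (ENSMUSG00000003032, chromosome 4, 55527143 to 55532466, minus strand) encodes a zinc finger factor that drives monocyte differentiation, above all of inflammatory monocytes. Values in the femur libraries S13, S15 and S18 were 133, 331 and 257 CPM, and those in the mandible libraries S16, S19 and S23 were 304, 281 and 307 CPM. The mandible libraries were close together (297 ± 13.9 CPM) and within the range of the femur (240 ± 100 CPM), whose lowest library was S13. The log2 fold change was 0.31 ± 0.33 (adjusted p = 0.76 by edgeR, exact permutation p = 0.4), and without S13 it was 0.02. Dental epithelial markers summed to 0.221 to 3.82 CPM in the femur and 5817 to 11397 CPM in the mandible. The part of those cells in the level of Klf4 was not tested.

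Gfi1 (ENSMUSG00000029275, chromosome 5, 107716657 to 107726036, minus strand) encodes a transcriptional repressor that opposes the monocyte program and is needed for neutrophils. Its promoter window at chr5:107725806-107726055 (minus strand, 5′ to 3′) is shown as the one that holds an E-box of the kind ZEB2 binds. Capitals mark the E-box, the reverse complement of CAGGTG, which starts 42 bases before the start site.
Gfi1 promoter: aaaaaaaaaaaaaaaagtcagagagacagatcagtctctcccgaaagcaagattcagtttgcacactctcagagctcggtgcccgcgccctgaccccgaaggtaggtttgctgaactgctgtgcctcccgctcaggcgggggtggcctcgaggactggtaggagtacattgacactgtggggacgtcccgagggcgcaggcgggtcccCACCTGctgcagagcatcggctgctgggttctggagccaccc
Gfi1 was at 39.2, 15.4 and 38.7 CPM in S13, S15 and S18, from 709, 334 and 875 counts, and at 25.9, 16.9 and 5.89 CPM in S16, S19 and S23, from 518, 357 and 103 counts. S13 and S18 were above all 3 mandible libraries, but S15 was below S16 and S19. The means were 31.1 ± 13.6 CPM and 16.3 ± 10.03 CPM, a fold of 0.524 in the mandible over the femur. The adjusted p was 0.44 by edgeR's quasi-likelihood test and the exact permutation p was 0.3. The log2 fold change was below 0 under all 20 alternatives, from -0.59 to -1.44 with 1 library left out, and without S15 it was -1.31 (edgeR, unadjusted p = 0.022, adjusted p = 0.15).

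RNA of the neutrophil lineage was highest in the same libraries as Gfi1. The 14 markers of neutrophil precursors and neutrophils, among them Elane, Mpo, Ltf and S100a9, summed to 34643, 4121 and 25236 CPM in S13, S15 and S18 and to 7596, 11259 and 4316 CPM in S16, S19 and S23. S13 and S18 were highest in both measures and S15 and S23 were the 2 lowest in both. Of the 14 markers 0 were called higher and 1, S100a8, lower in the mandible, beside 3.88% and 1.3% of tested genes. None was at 0 in any library, and 0 of the 14 had a log2 fold change above 0. Their median log2 fold change was -1.37, and 7 had an unadjusted p under 0.05 by edgeR, beside 16.4% of tested genes. The part of these cells in the level of Gfi1 was not tested.

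Zeb2 (ENSMUSG00000026872, chromosome 2, 44983632 to 45117395, minus strand) encodes an E-box repressor that promotes the monocyte and plasmacytoid dendritic fates. The windows before 2 of its start sites are shown since the PU.1 core was found in windows of Zeb2 and in none of the other 6 factors searched, Spi1 not among them. They lie at chr2:45117443-45117692 and chr2:45110278-45110527 (minus strand, 5′ to 3′), and capitals mark the core, which starts 118 bases before the first and 211 bases before the second start site.
Zeb2 promoter 1: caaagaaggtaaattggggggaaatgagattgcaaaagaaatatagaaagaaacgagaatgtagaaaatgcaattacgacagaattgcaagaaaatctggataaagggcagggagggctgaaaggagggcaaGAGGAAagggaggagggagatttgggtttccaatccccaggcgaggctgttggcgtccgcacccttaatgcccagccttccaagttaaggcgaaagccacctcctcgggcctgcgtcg
Zeb2 promoter 2: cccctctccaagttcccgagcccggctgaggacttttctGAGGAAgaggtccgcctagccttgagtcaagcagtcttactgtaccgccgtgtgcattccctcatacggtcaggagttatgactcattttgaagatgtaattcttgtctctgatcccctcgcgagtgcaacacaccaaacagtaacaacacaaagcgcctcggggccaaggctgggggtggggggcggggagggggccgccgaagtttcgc
Zeb2 was at 315, 823 and 439 CPM in S13, S15 and S18 and at 1000, 804 and 732 CPM in S16, S19 and S23. S13 and S18 were below all 3 mandible libraries, and S15 was among them. The means of 526 ± 265 CPM and 845 ± 139 CPM gave a fold of 1.61 and a log2 fold change of 0.69 ± 0.38 (edgeR, unadjusted p = 0.097, adjusted p = 0.43, exact permutation p = 0.3). Without S15, Zeb2 was called higher in the mandible, with a log2 fold change of 1.12 ± 0.30 and an adjusted p of 0.045 by edgeR, beside 8.35% of tested genes called in those 5 libraries. Without S15 and S23 together it was 1.21 ± 0.26, with an adjusted p of 0.033 beside 6.48% called. The mesenchymal and dental epithelial marker sums differed in the same direction, at 330 to 424 and 0.221 to 3.82 CPM in the femur. In the mandible they were 9347 to 15931 and 5817 to 11397 CPM. The part of those cells in the level of Zeb2 was not tested. The antisense gene Zeb2os shares 653 exonic bases with Zeb2, and its counts came to at most 7.47% of those of Zeb2 in any library. This share does not measure the reads on the shared bases.

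A trend with gene length ran in the same direction as Zeb2. Zeb2 is listed at 20203 bases, longer than 99.4% of tested genes, and log2 CPM smoothed over gene length in each library, given as the difference from the mean of the 6 libraries, was -0.65, 0.19 and -0.77 at that length in S13, S15 and S18 and 0.15, 0.33 and 0.75 in S16, S19 and S23. The smoothed trend at this length was thus higher in the mandible than in the femur by 0.82 (log2). With the trend removed, the log2 fold change of Zeb2 was 0.01 (adjusted p = 0.996 by edgeR), and without S15 as well 0.08 (adjusted p = 0.94). For Irf8, at 7055 bases, the trend was 0.40 higher in the mandible, and the other 6 factors lay between -0.26 and 0.06.

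**Figure D3:**
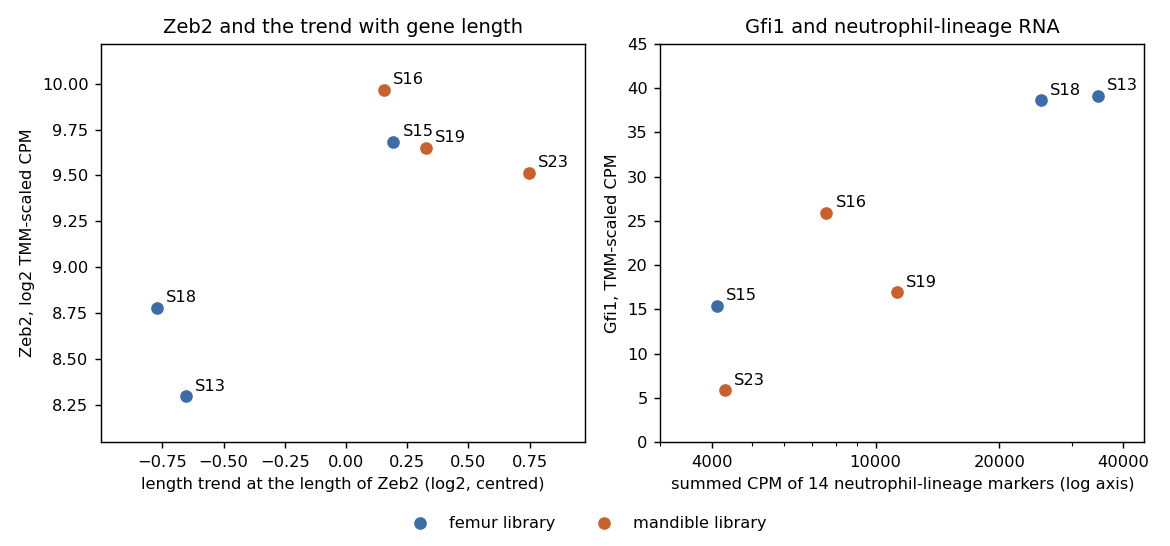
On the left, Zeb2 (log2 TMM-scaled CPM) is plotted against the trend of log2 CPM with gene length at the length of Zeb2, and on the right, Gfi1 (TMM-scaled CPM) against the summed CPM of 14 neutrophil-lineage markers on a log axis, each point being a femur (blue) or mandible (orange) library. Femur library S15 lies beside the mandible libraries in both panels, with a trend of 0.19 on the left and a marker sum of 4121 CPM on the right.

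Per kilobase of the listed gene length, Klf2 had the highest mean level over the 6 libraries (151 CPM per kilobase in the femur and 146 in the mandible), followed by Cebpb (119 and 154), Klf4 (78.9 and 97.5), Spi1 (68.1 and 60.6), Irf8 (55.7 and 59.5), Zeb2 (26.0 and 41.8), Cebpa (26.7 and 27.6) and Gfi1 (9.75 and 5.10). Among all tested genes this put Klf2 above 98.6% and Gfi1 above 67.8%. The listed length joins the exons of all annotated transcripts of a gene, 29 for Zeb2 and 7 for Irf8 but 1 for Cebpb and Klf2. Where the cells use shorter transcripts, the level per kilobase is too low, so this order depends in part on annotation. Which transcripts were used was not tested. In the mandible alone the mean of Cebpb was above that of Klf2, and in the femur alone that of Cebpa above that of Zeb2. Gfi1 was the lowest of the 8 in all 6 libraries. Of the neighbours in this order, Cebpb was above Klf4 and Cebpa above Gfi1 in 6 of 6 libraries, by 0.65 ± 0.23 and 2.11 ± 0.90 (mean log2 difference ± SD over 6 libraries). The other 5 pairs of neighbours changed places in 1 or 2 libraries and cannot be put in order beyond their spread.

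**Figure D4:**
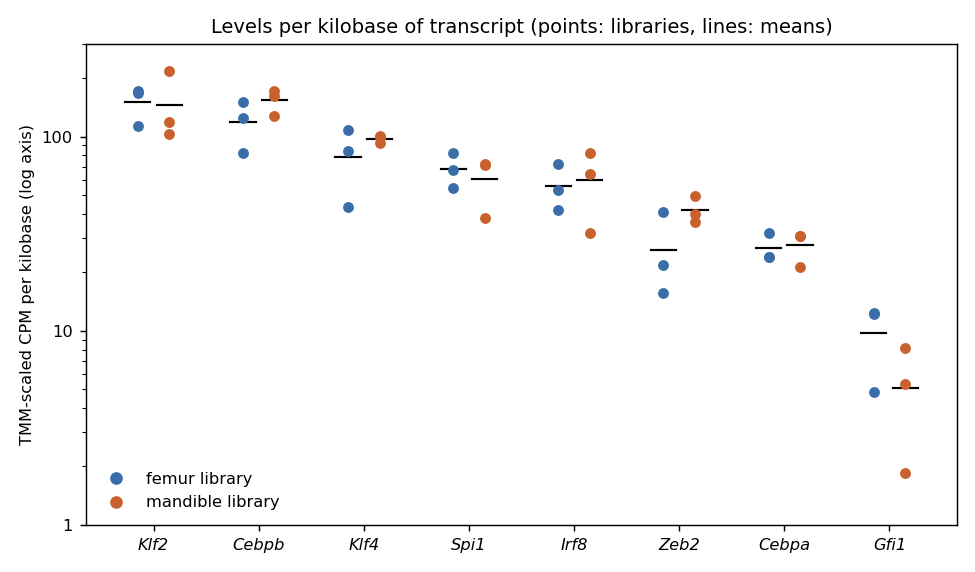
TMM-scaled CPM per kilobase of gene length (log axis) for each factor in the femur (blue) and mandible (orange) libraries, with the mean of each site as a line. Klf2 and Cebpb are at the top and Gfi1 is below the other factors in each library, with means of 9.75 and 5.10 CPM per kilobase.

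A ratio of counts within a library does not depend on the scaling between libraries, so each factor was also set against Spi1. Such a ratio does not remove the trend with gene length. That trend, mandible minus femur, was 0.82 (log2) at the length of Zeb2 and -0.01 at that of Spi1. There were 1.64, 3.45 and 1.69 counts of Irf8 for each count of Spi1 in S13, S15 and S18 and 2.98, 2.36 and 2.19 in S16, S19 and S23. For Zeb2 the ratio was 1.74, 5.60 and 1.98 in S13, S15 and S18 and 5.13, 4.19 and 7.11 in S16, S19 and S23, a difference of 1.00 in mean log2 ratio (exact permutation p = 0.3). For Gfi1 it was 0.216, 0.105 and 0.174 in the femur and 0.133, 0.0883 and 0.0573 in the mandible, a difference of -0.85 (exact permutation p = 0.2). Differences in mean log2 ratio were 0.60 for Cebpb, 0.61 for Klf4, 0.25 for Cebpa, 0.23 for Irf8 and 0.10 for Klf2. The sites overlapped for all 7 ratios, and the p-values of the exact permutation tests were between 0.525 and 1 after Benjamini-Hochberg adjustment over the 7.

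Some of the factors had like patterns over the libraries. Over the 6 libraries Pearson's r of log2 CPM was 0.91 for Cebpb and Zeb2, 0.89 for Cebpb and Klf4 and 0.88 for Klf4 and Zeb2, and it was 0.90 for Spi1 and Gfi1 and 0.88 for Spi1 and Cebpa. Klf2 ran against Spi1 at -0.68. These are descriptions of 6 points that share library, depth and the trend with length, and with 6 points many genes come close to any pattern: between 6 (Klf2) and 130 (Gfi1) of the 9507 genes with a mean of at least 10 CPM had an r over 0.95 with a given factor. The genes most like Spi1 were Fam111a, Gnb2 and Gstm4, and those most like Cebpa were Hivep1, Idh1 and Cd93. For Cebpb they included Tiam1 and Itga1, for Irf8 Xbp1, Zbtb45 and Bin2, and for Klf2 Tmem222, Fam43a and Dusp1. For Klf4 they were Lmf1, Nhlrc3 and Gpr132, for Gfi1 Gid8, Impa2 and Hddc2, and for Zeb2 they included Phrf1 and Arhgap26. Each gene named had an r of at least 0.97 with its factor.

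Relatives of the 8 factors in the ETS, C/EBP, IRF, KLF, GFI and ZEB families gave no called gene by edgeR, beside 5.18% of tested genes. Of 38 relatives 35 were tested (all but Klf14, Klf17 and Klf18), 24 had a log2 fold change above 0, and the median was 0.27 beside -0.04 for all tested genes. An unadjusted p under 0.05 by edgeR was found for 5 of the 35, near the 16.4% of all tested genes, and DESeq2 called 2 higher and 1 lower, beside 6.07% and 2.47% of tested genes. The most abundant were Klf6, an early response factor (337 and 393 CPM in femur and mandible, 0.22 ± 0.34 on the log2 scale), Klf13 (183 and 264 CPM, 0.52 ± 0.26) and Irf5, which drives inflammatory macrophage genes (169 and 213 CPM, 0.33 ± 0.38). None of these 3 passed the test by edgeR (adjusted p = 0.85, 0.35 and 0.78).

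Factors of stem and progenitor cells were tested as a list of 16, of which 0 were called higher and 1 lower, beside 3.88% of tested genes called higher and 1.3% called lower. The median log2 fold change was -0.48, and 5 of the 16 were above 0. Tal1, needed for blood stem cells, red cells and megakaryocytes, fell from 37.9 ± 21.9 CPM to 7.86 ± 2.31 CPM (log2 fold change -2.27 ± 0.45, adjusted p = 0.013 by edgeR). Its values were 62.8, 21.7 and 29.0 CPM in S13, S15 and S18 and 10.1, 7.98 and 5.49 CPM in S16, S19 and S23, with no overlap between the sites. Without S13, S19 or S23 its adjusted p was 0.093, 0.074 or 0.051 by edgeR. The erythroid and megakaryocyte markers moved the same way, with sums of 257 to 1710 and 539 to 867 CPM in the femur and 113 to 216 and 72.8 to 105 CPM in the mandible, and their part in the level of Tal1 was not tested. The most abundant members were Ikzf1 (261 and 275 CPM, 0.07 ± 0.28), Runx1 (128 and 147 CPM, 0.20 ± 0.26) and Myb (171 and 91.9 CPM, -0.90 ± 0.31, adjusted p = 0.15 by edgeR). Without S15 the list held 3 genes called lower, beside 3.24% of tested genes.

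Of other factors of monocytes and macrophages, 4 of 20 were called higher, beside 3.88% of tested genes, and 0 lower, with a median log2 fold change of 0.89 and 18 of 20 above 0. This list, like the others, was chosen with earlier results of these data known, so its share of calls is a description and not a test. Egr1, an immediate early factor, rose from 20.5 ± 9.64 CPM to 176 ± 4.001 CPM (log2 fold change 3.10 ± 0.35, adjusted p = 0.00045 by edgeR), with 18.2, 12.3 and 31.1 CPM in S13, S15 and S18 and 178, 178 and 171 CPM in S16, S19 and S23. Maf rose from 15.1 ± 3.41 CPM to 106 ± 13.3 CPM (2.81 ± 0.28, adjusted p = 0.00024 by edgeR), with 16.4, 11.2 and 17.7 CPM in the femur and 118, 91.9 and 108 CPM in the mandible. For both genes the sites were far apart in every library. Nr4a1, an immediate early nuclear receptor that patrolling monocytes need, rose from 58.7 ± 22.96 to 139 ± 4.66 CPM (1.25 ± 0.32, adjusted p = 0.047 by edgeR), and Tcf4, an E protein needed for plasmacytoid dendritic cells, rose from 36.8 ± 7.36 to 77.7 ± 11.6 CPM (1.08 ± 0.26, adjusted p = 0.037 by edgeR). Hif1a, the factor of the hypoxia response and the remaining member of the 3 most abundant, was at 52.4 and 76.7 CPM (0.55 ± 0.25, adjusted p = 0.31 by edgeR).

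Egr1 and Maf were called under all 20 alternatives, whereas the call of Nr4a1 was lost in 9 and that of Tcf4 in 8 with its direction turned in 1 more. Tcf4 was at 0.11 (log2) once the trend with gene length was removed, and at -0.09 without S15 as well. Genes of the list called higher were 2 once the trend was removed (beside 3.59% of tested genes), 6 without S15 (beside 5.11%) and 10 with DESeq2 (beside 6.07%). They were 3 without S16 (beside 3.21%), and 2 each without S13, S18, S19 or S23 (beside 1.88 to 2.27%). These 4 genes are not particular to monocytes, and the mesenchymal and dental epithelial markers differed between the sites in the same direction (330 to 424 against 9347 to 15931 CPM and 0.221 to 3.82 against 5817 to 11397 CPM). Their part in the 4 genes was not tested.

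**Figure D5:**
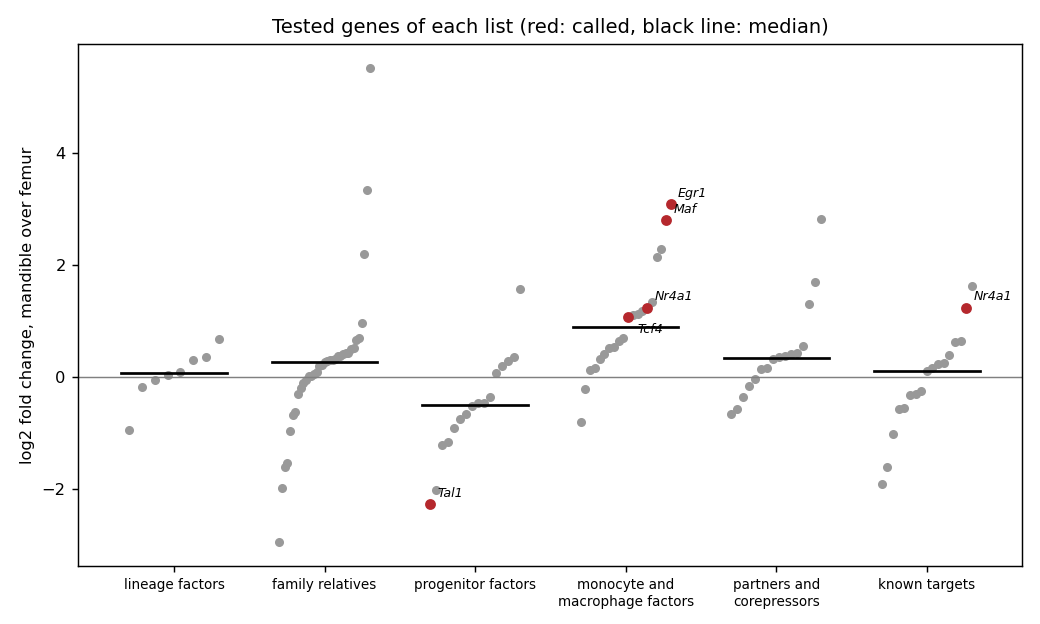
Log2 fold change of the mandible over the femur (vertical axis) for every tested gene of 6 lists, with called genes in red and the median of each list as a line. The 8 lineage factors lie between -0.93 and 0.69 with none called, and Egr1 (3.10), Maf (2.81), Nr4a1 (1.25) and Tcf4 (1.08) are the called genes among the monocyte and macrophage factors.

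Partners and corepressors of the 8 factors gave 0 called genes of 16 tested, with 11 above 0, a median log2 fold change of 0.35 and 3 with an unadjusted p under 0.05 by edgeR, beside 5.18% of tested genes called and 16.4% with such a p. DESeq2 called 1 of them, beside 8.54%. Jun, the AP-1 subunit that joins PU.1, was at 837 and 655 CPM in femur and mandible (-0.35 ± 0.38, adjusted p = 0.76 by edgeR), Ctbp1, a corepressor of ZEB factors, at 120 and 117 CPM (-0.03 ± 0.27), and Cop1 at 90.1 and 99.5 CPM (0.14 ± 0.23). By qRT-PCR, a measure unlike these counts, the study reported the other direction for Jun, a significant increase in mandibular-derived monocytes.

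Known targets of the 8 factors gave 1 called gene of 17 tested, Nr4a1, beside 5.18% of tested genes, and a median log2 fold change of 0.11 with 9 above 0. Lyz2, the lysozyme gene of the myeloid cells, was at 7662 and 6136 CPM (-0.32 ± 0.45). Mpo, the myeloperoxidase of the neutrophil and early monocyte stages, was at 1931 and 953 CPM (-1.02 ± 0.61), with 2397, 500 and 2897 CPM in S13, S15 and S18 and 1237, 1239 and 384 CPM in S16, S19 and S23. Cybb, a subunit of the phagocyte oxidase, was at 1017 and 1209 CPM (0.25 ± 0.46). None of these 3 passed the test by edgeR (adjusted p = 0.83, 0.49 and 0.88), and S15 and S23 were the lowest libraries for each of them. Without S15, 1 target was called higher and 2 lower, beside 8.35% of tested genes in either direction. The call of Nr4a1 as a target was lost without S13, S16, S18, S19 or S23.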

How the data were processed

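RNA of 3 femur-derived and 3 mandibular-derived monocyte libraries was sequenced. The authors mapped Trimmomatic-trimmed read pairs to GRCm38 with HISAT2 2.1.0 (per the submitters' processing notes) and quantified genes with featureCounts. The deposited values are raw read counts per gene, with no normalization. The version of featureCounts and its use of strand and of reads with several positions are not given in the sources used here. Only 3031 of 52081 gene intervals of the count table lay inside the GRCm38 gene of GENCODE M21, and positions given are those of M21, matched on the Ensembl identifier. Libraries were grouped by the site in their titles.

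The test was edgeR 4.0.16 in R 4.3.3, with filterByExpr (minimum count 10, minimum total 15), TMM, a quasi-likelihood model (prior count 0.125) and Benjamini-Hochberg adjustment over 18114 genes. A call needed an adjusted p under 0.05 and a difference of 2-fold or more against the femur, and no covariate was fitted. Exact two-sided permutation tests of 3 against 3 libraries have 20 divisions and a smallest p of 0.1. Ratios to Spi1 used the raw counts, and the permutation tests of levels log2 CPM after adding 0.5 to each count. The 3 counts that a count of 0 allows were 0.133 to 0.172 TMM-scaled CPM, and such limits cover counting error only. The length trend was fitted per library by loess (span 0.4) to log2 CPM over gene length, and its values are given after subtracting the mean over the 6 libraries. Other fits were DESeq2 1.42.0, limma-voom (limma 3.58.1), other scalings, filters, prior count and thresholds, and each library left out. The fits were tested on simulated data.

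The factors and the gene lists were chosen with earlier results of these data known. Named genes are the 8 factors, in each list the called genes and the 3 tested genes with the highest mean, and for each factor the 3 genes with the highest Pearson r, of which some are not reported here. Leaving out S15 and S23 together, and S15 with the length trend, was chosen after the data were seen.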

Additional observations from a re-analysis of the deposited data

How the results depend on the processing

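No paired analysis was possible because the replicate numbers are library numbers and no number occurs at both sites. Of 160 results of the 8 factors under alternatives, 136 kept their direction and side of the thresholds, 22 changed sign and 2 passed the thresholds, both for Zeb2 (1.12 without S15 and 1.21 without S15 and S23). The number of factors called was 0 to 1 with 1 library left out, and 1 without S15 and S23. Signs changed without normalization factors for Klf2 (0.069), with scaling to monocyte markers for Klf2 (0.0011), Cebpa (-0.033) and Irf8 (-0.048), with the length trend removed for Klf2 (0.10) and Irf8 (-0.23), and with it removed and S15 left out for Klf2 (0.059), Cebpa (-0.11), Irf8 (-0.21) and Tcf4 (-0.091). With 1 library left out, log2 fold changes were -0.35 to 0.023 for Spi1, -0.085 to 0.21 for Cebpa, -0.20 to 0.34 for Irf8, -0.50 to 0.15 for Klf2 and 0.43 to 1.12 for Zeb2, and the log2 ratio of Klf2 to Spi1 differed by -0.52 to 0.47. The causes were not tested.

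Genes called were 938, of which 702 were higher and 236 lower. They were 434 to 1565 (376 to 957 higher, 58 to 608 lower) with 1 library left out, 1547 with DESeq2 (1099 higher, 448 lower) and 1590 with no filter on low counts (571 lower), and 1662 without S15 and with the length trend removed. Lower calls were 157 without normalization factors, 141 with scaling to monocyte markers, 384 at an adjusted p under 0.10, 497 without S15 and S23, and 820 without S15 and with the length trend removed. The median log2 fold change of all genes was -0.04, -0.18 with the length trend removed, and -1.09 with no filter on low counts (42225 genes). For the 8 factors, counting error was small beside the spread between libraries, and depth was not tested for other genes. Of the calls, 74.8% were higher in the mandible, and 50.7 to 80.2% under alternatives other than leaving out 1 library.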
